A study of Mus musculus with 37 samples.

Results

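The cytosolic ribosomal protein genes were described in uterine natural killer (uNK) cells sorted by the receptors that educate them. Genes were taken by name alone: protein-coding mouse genes whose symbol starts with Rpl or Rps and a digit, together with Rplp0, Rplp1, Rplp2 and Rpsa, without pseudogene symbols and without the Rps6k kinases. This gave 86 of the 53700 genes in the count files, of which 46 encode proteins of the large subunit, 31 encode proteins of the small subunit, and 9 are paralogs, a retrogene or a gene named for binding a ribosomal protein. Another 7 genes, Rps4l among them, matched the naming rule without being protein-coding and were left out.

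The data are bulk RNA-seq counts from 37 libraries of live CD45+ NKp46+ cells from the pregnant uterus of C57BL6 mice at gestation day 9.5 to 10.5. Cells without Ly49C/I and NKG2A were the uneducated population, and cells with 1 of these inhibitory MHC class I receptors were the educated populations. WT mice gave 9 uneducated, 9 NKG2A+ (Ly49C/I-) and 6 Ly49C/I+ (NKG2A-) libraries, and mice labelled NKG2A KO gave 8 uneducated and 5 Ly49C/I+ libraries. No source used here ties a library to 1 animal, so p-values measure the spread between these libraries, and cells with both receptors were not sorted. WT Ly49C/I+ libraries carry the numbers 1, 2, 4, 5, 7 and 8 of their second label line. The second label line of WT uneducated 5 repeats that of WT uneducated 4, and its title was followed. No source read for this work describes how the knockout was made. In mice without NKG2A, a sort on NKG2A cannot set apart cells that would otherwise carry it. Both NKG2A KO populations may therefore hold such cells, which the WT populations of the same name leave out, and this was not tested.

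Ribosomal proteins are made in the cytosol, imported into the nucleolus, assembled on ribosomal RNA and exported as subunits, and a ribosome holds a single copy of most of them. Their mRNAs typically begin with a C and a run of pyrimidines, the 5' terminal oligopyrimidine tract, through which their translation follows nutrient and growth signals. In lymphocytes, synthesis of ribosomes rises with activation, cytokine stimulation and entry into cycle.

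The transcription start sites are shown first for the genes on which the comparisons below turn, to let the tract be read beside their values. RefSeq windows of 300 bases (250 before and 50 after the annotated start, build GRCm38.p6) matched 66 of the 86 genes by symbol, in 78 windows because some genes have several starts. Of each printed sequence, 15 bases lie before the start and 15 from the start on. Capitals mark a C followed by at least 4 bases that are each C or T, where the C lies within 5 bases of the annotated start.
Rps27, chr3:90213634-90213663, minus strand: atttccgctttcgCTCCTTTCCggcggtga
Rps27l, chr9:66946071-66946100, plus strand: ccactcctccccgccgCCTCTatcccggaa
Rps26, chr10:128626492-128626521, minus strand: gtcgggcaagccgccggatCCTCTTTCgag
Rps2, chr17:24720048-24720077, plus strand: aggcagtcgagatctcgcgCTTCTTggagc
Rpl38, chr11:114668565-114668594, plus strand: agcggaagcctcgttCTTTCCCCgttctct
Rps18, chr17:33955651-33955680, minus strand: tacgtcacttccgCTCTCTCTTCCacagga
Rplp0, chr5:115559452-115559481, plus strand: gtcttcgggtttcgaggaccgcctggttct
Rps12, chr10:23787195-23787224, minus strand: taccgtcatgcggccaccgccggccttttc
Rpl7l1, chr17:46782642-46782671, minus strand: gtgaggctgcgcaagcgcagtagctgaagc
Rps19bp1, chr15:80264292-80264321, minus strand: cagggcggaagtagctcgccgcgtgtgggc
A tract by this definition was found in 32 of the 78 windows (41%) and in 18.3% of all 32851 windows of the table. The start printed for Rps27l is 1 of 2 annotated starts. Searched on both strands over the full 300 bases, CCGGAAG was in 34.6% of the members' windows and 8.86% of all windows, GGGCGG in 60.3% and 35.7%, and TATAAA in 8.97% and 13.6%. Matches of different motifs can overlap, and RefSeq starts can lie some bases from the start used in these cells, so a window without capitals holds only no such run of letters there.

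Between 13287163 and 18875033 reads were counted on genes per library (median 17273311). NK cell genes were abundant in every library (Ncr1, which encodes NKp46, 463 to 1023 CPM, the count relative to all reads on genes after TMM scaling). Markers of other cells were uneven: Pax5, Gcm1 and Tfap2c were at 0 in all 37, and Cd4 and Cd8a were at 0 in 35 and 34. The T cell genes Cd3g (29.9 to 183 CPM) and Trac (16.6 to 64.0 CPM) were above 0 in every library. The trophoblast genes Krt8 and Krt18 reached 34.4 and 25.5 CPM. Klrc1, which encodes NKG2A, was at 495 to 753 CPM in WT NKG2A+ libraries and at 0.781 to 13.9 CPM in the other 28. NKG2A- cells were sorted in both genotypes, so this does not check the knockout label. WT uneducated 5, WT NKG2A+ 9, WT Ly49C/I+ 5 and NKG2A KO Ly49C/I+ 5 had fewer genes with a count (13982 to 14197) than the other libraries. In WT uneducated 5, mitochondrial genes took 1.12% of the reads on genes, against 0.25% to 0.54% in the other libraries. Its share of reads without a unique position was also the highest (13.8%). The part of these in its members' levels was not tested. WT uneducated 5 and NKG2A KO Ly49C/I+ 4 stood apart in the members' levels, and values without them are given beside the counts, medians and calls that they moved.

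The 86 genes together took 2.67% to 4.04% of the reads counted on genes (median 3.28%). In WT uneducated libraries the share ran from 3.06% to 3.99% (median 3.60%), in WT NKG2A+ libraries from 2.99% to 3.32% (median 3.13%) and in WT Ly49C/I+ libraries from 3.32% to 4.04% (median 3.56%). In NKG2A KO libraries it ran from 3.05% to 3.59% in uneducated cells (median 3.30%), and was 2.67%, 3.05%, 3.13%, 3.15% and 3.49% in Ly49C/I+ cells. All 9 NKG2A+ libraries lay below the lowest WT Ly49C/I+ library, although both bounds round to 3.32%, while they overlapped the range of the uneducated libraries. The WT uneducated group was uneven: libraries 1, 2 and 6 (3.14%, 3.06% and 3.10%) lay within the NKG2A+ range, and the other 6 (3.50% to 3.99%) above it. Those 3 libraries also had the lowest shares of reads without a unique position in their group (11.7%, 11.4% and 11.6%, against 12.3% to 13.8% in the other 6), whose part in the result was not tested.

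**Figure D1:**
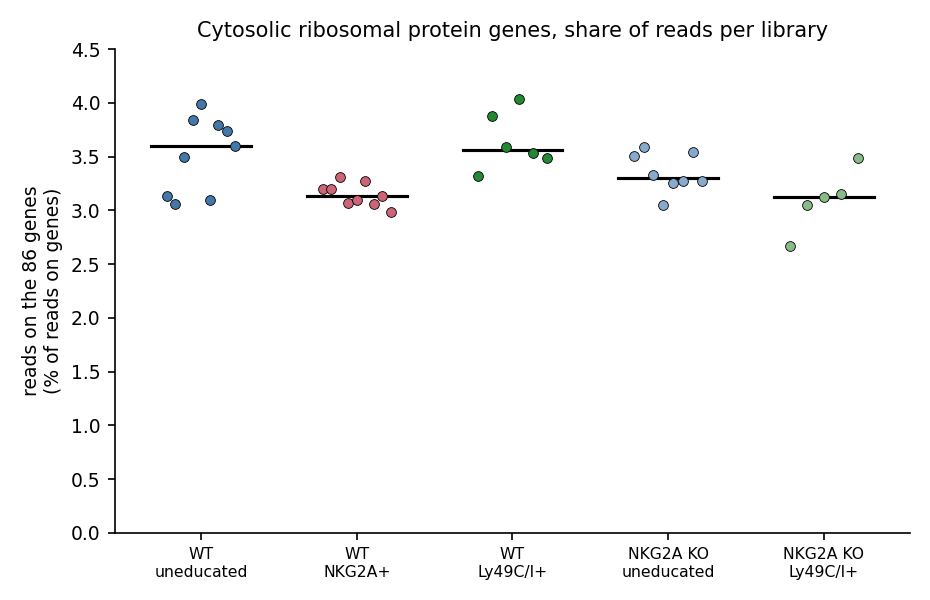
Percent of reads on genes that fell on the 86 cytosolic ribosomal protein genes, 1 point per library in 5 groups, with a line at each group's median. The WT NKG2A+ libraries lie between 2.99% and 3.32%, and the WT uneducated libraries spread from 3.06% to 3.99%.

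Levels per kilobase of exon differed widely between members (median over 37 libraries, CPM per kb). The highest were Rpl32 (1002), Rplp1 (968), Rpl4 (908), Rplp0 (842) and Rpl36 (835), where Rplp0 and Rplp1 form the stalk that recruits translation factors and Rpl4, Rpl32 and Rpl36 are proteins of the large subunit. The lowest were Rpl3l and Rpl10l at 0, Rpl39l at 0.432, Rpl24 at 0.716 and Rps10 at 1.61. Rpl3l, Rpl10l and Rpl39l are tissue-restricted paralogs, and Rpl3l had a count in 5 of the 37 libraries and Rpl10l in 1. Rpl24 and Rps10 encode constitutive ribosomal proteins, and their counts were 3 to 37 and 31 to 245 reads per library. Of their annotation, 47.0% of the exonic bases of Rpl24 lie in exons of Gm28037, and 28.7% of those of Rps10 in exons of other genes, among them RPS10-NUDT3. Over all members, a median of 23.1% of the 50-base stretches of their transcripts also occurred in another gene's transcripts (0% to 91.1%), and 8 members shared over 0.5 of them, Rpl36 (81.1%), Rplp1 (60.0%) and Rps27rt (91.1%) among them, so levels of these are uncertain.

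A gene was tested where 0.5 or more of the compared libraries reached 5 CPM, which left 80 of the 86 members in each comparison, without Rpl3l, Rpl10l, Rpl39l, Rpl24, Rps10 and Rps27rt. The 80 varied together between libraries of the same group. The median correlation of 2 members over the 37 libraries, after each group's mean was taken off on the log2(CPM + 1) scale, was 0.58 (quartiles 0.40 and 0.71), over points that share library size and scaling. Rpl7l1 and Rps19bp1 followed the other members least, with median correlations of 0.08 and 0.21. In WT uneducated 4, all 80 lay above their own mean over all libraries, against 2 of 80 in WT uneducated 6, 1 of 80 in WT NKG2A+ 5 and 2 of 80 in NKG2A KO Ly49C/I+ 4. WT uneducated 5 was different in kind: Rps26, Rpl38 and Rpl29 were at their highest there, while Rps14, Rps3, Rpl9 and Rpl13a lay below their means.

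**Figure D2:**
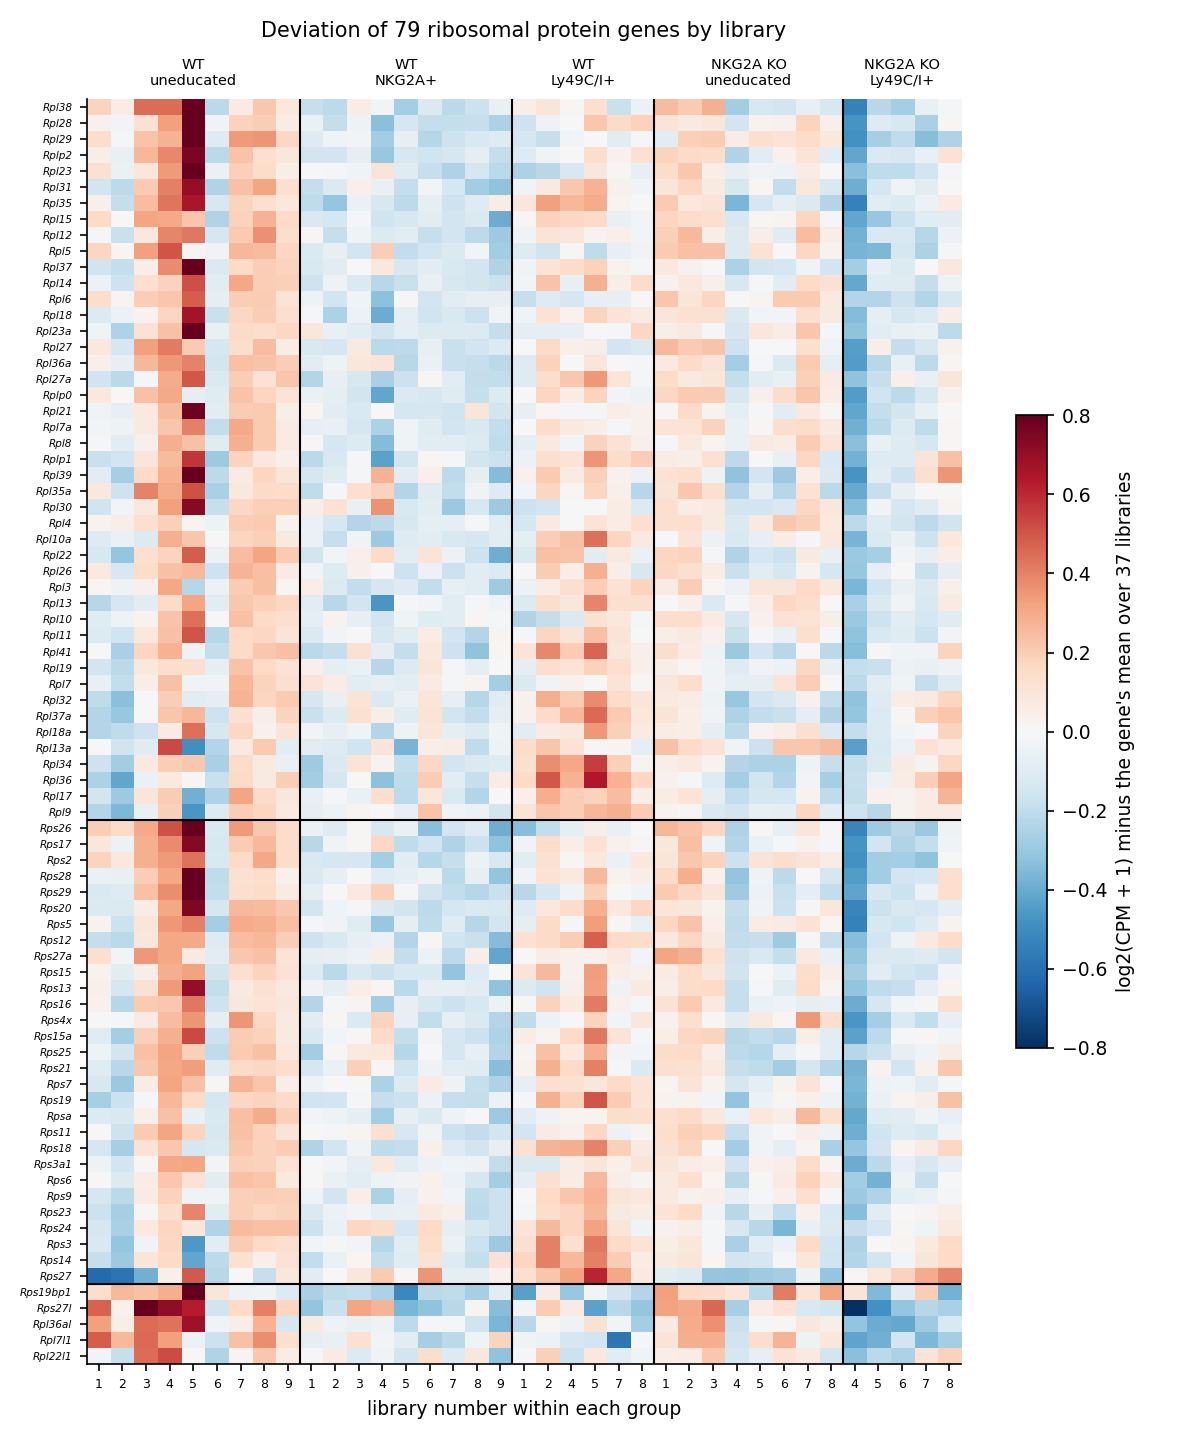
Deviation of 79 of the 80 tested members (rows, by subunit) from its own mean over 37 libraries, on the log2(CPM + 1) scale, in each library (columns, by group). Most rows of WT NKG2A+ are blue (lower), WT uneducated libraries 3, 4, 5, 7, 8 and 9 are mostly red (higher), and most rows of NKG2A KO Ly49C/I+ 4 are blue.

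To ask how NKG2A+ cells differ from uneducated cells, the WT groups were compared first. Of the 80 members, 26 fell in NKG2A+ cells and none rose, with a median log2 fold change of -0.21 over the 80 and 0.01 over all genes (edgeR's quasi-likelihood test, Benjamini-Hochberg adjusted p under 0.05). Over all 9339 genes tested, 7.56% were lower and 7.47% higher. The differences were small, and 77 of the 80 lay below 0. They came from both subunits: 15 of 45 tested large subunit genes, 8 of 30 small subunit genes and 3 of 5 relatives fell. Leaving out WT uneducated 4 left 15 members called, leaving out WT uneducated 8 or WT NKG2A+ 7 left 17, and without WT uneducated 5 there were 24 lower and 1 higher, with 23 of the 26 still called and a median of -0.16. Without both WT uneducated 5 and WT NKG2A+ 5, 18 members were lower and none was higher, with a median of -0.15. Of the 26, 15 passed the threshold whichever library was left out, and 8 passed it under each of the other settings tried.

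Rps26, a protein of the mRNA exit channel, ran from 284 to 668 CPM in WT uneducated libraries (median 358) and from 235 to 310 CPM in NKG2A+ libraries (median 287). The groups overlapped, and the highest value was that of WT uneducated 5. The log2 fold change was -0.50 ± 0.13 (SE, edgeR adjusted p = 0.0098), and -0.35 without WT uneducated 5 (adjusted p = 0.00318). Rps2, a small subunit protein at the mRNA entry channel, ran from 702 to 1032 CPM (median 863) and from 633 to 739 CPM (median 695). The groups overlapped between 702 and 739 CPM, and the change was -0.35 ± 0.07 (adjusted p = 0.00164). Rplp0 ran from 1312 to 1728 CPM (median 1515) and from 1052 to 1351 CPM (median 1295), with a change of -0.25 ± 0.06 (adjusted p = 0.0117). Rpl38, a protein of the large subunit, also fell (-0.41 ± 0.12, adjusted p = 0.0242), by 0.29 on the log2 scale without WT uneducated 5. Rpl28 was the only one of the 80 whose groups did not overlap (181 to 350 CPM in uneducated and 146 to 179 CPM in NKG2A+ libraries), against 0.835% of all genes tested that lay lower without overlap, and it was singled out after its values were seen.

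The largest fitted decrease with all libraries was that of Rps19bp1, which encodes a nucleolar protein that binds Rps19 and is no part of the ribosome. It ran from 27.8 to 93.6 CPM in uneducated and from 20.7 to 28.4 CPM in NKG2A+ libraries, with medians of 33.3 and 25.8 CPM. The highest value, in WT uneducated 5, lay far above the next (37.0 CPM). Its change was -0.64 ± 0.20 (edgeR adjusted p = 0.0383) and -0.34 without that library (adjusted p = 0.0316), where Rps27l (-0.45) and Rps26 (-0.35) lay lower. The call was lost when WT uneducated 4 or any 1 of WT NKG2A+ 1 to 8 was left out (adjusted p up to 0.0683). Among genes of special roles, Rpl5, which carries 5S rRNA with Rpl11 and binds Mdm2, fell (-0.28 ± 0.08, adjusted p = 0.0194), whereas Rpl11 was at -0.16 ± 0.09 (adjusted p = 0.238). Rplp2, of the acidic stalk, fell (-0.35 ± 0.10, adjusted p = 0.0215), and its partner Rplp1 was at -0.22 ± 0.10 (adjusted p = 0.159). Rps27a, made as a fusion to ubiquitin, fell (-0.24 ± 0.08, adjusted p = 0.0336; lost, at up to 0.0708, without WT uneducated 3, 4, 7 or 8 or WT NKG2A+ 5 or 7). Rps6, the target of the S6 kinases, was at -0.15 ± 0.07 (adjusted p = 0.145), Rpsa, also known as the laminin receptor, at -0.16 ± 0.07 (adjusted p = 0.139), and Rpl13a, known from interferon-gated silencing of translation, at -0.07 ± 0.14 (adjusted p = 0.804).

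**Figure D3:**
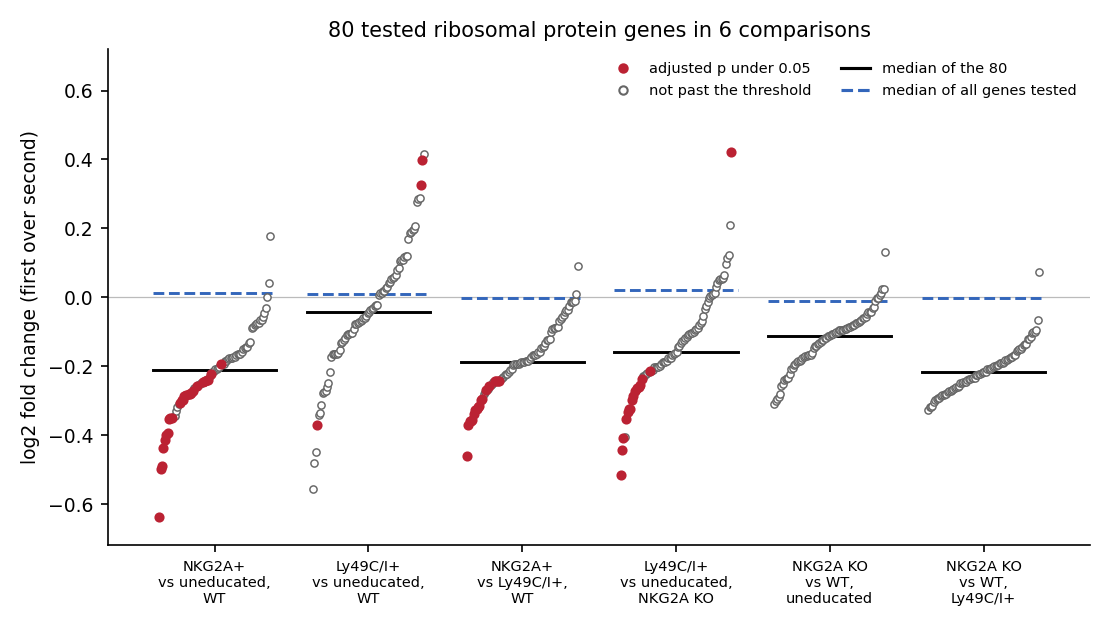
Log2 fold change of the 80 tested members in 6 comparisons, sorted within each. Filled points have an adjusted p under 0.05 (26, 3, 18, 16, 0 and 0 from left to right), the solid line is the members' median and the dashed line the median of all genes tested.

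Ly49C/I+ cells of WT mice were compared with the same 9 uneducated libraries. Here 2 of the 80 members rose and 1 fell, against 4.5% of all 9292 genes higher and 4.7% lower, and the members' median was -0.04 (all genes 0.01), with 47 of the 80 below 0. The sign of the median was not stable: it was 0.01 without WT uneducated 5 (39 of 80 below 0) and 0.03 with offsets for GC content and length (33 of 80), and it reached -0.08 without WT uneducated 1, 2 or 6 or WT Ly49C/I+ 5. With all libraries but WT uneducated 5, 4 members rose and 3 fell, and with the offsets 3 rose and 2 fell. Rpl36, a protein of the large subunit, ran from 241 to 369 CPM in uneducated libraries (median 324) and from 360 to 503 CPM in Ly49C/I+ libraries (median 390). The groups overlapped by a narrow margin, and the change was 0.40 ± 0.11 (edgeR adjusted p = 0.0259; up to 0.0824 without WT uneducated 1 or WT Ly49C/I+ 2, 5 or 7). With offsets for GC content and length it was 0.15 (adjusted p = 0.295). Rps14, a protein of the small subunit platform, ran from 700 to 1043 CPM (median 961) and from 977 to 1237 CPM (median 1098), with a change of 0.33 ± 0.09 (adjusted p = 0.0377). Rpl7l1, a paralog of Rpl7, fell by 0.37 on the log2 scale (SE 0.11, adjusted p = 0.0495), from 121 to 190 CPM in uneducated libraries (median 163) to 90.7 to 135 CPM in Ly49C/I+ libraries (median 128). The calls of Rps14 and Rpl7l1 were lost without 9 and 12 of the 15 libraries, each in turn, and the number called ran from 0 (without WT uneducated 1, WT Ly49C/I+ 5 or WT Ly49C/I+ 7) to 7 (without WT uneducated 5). It was 1 without WT uneducated 8 or WT Ly49C/I+ 1, 2 or 4, and 6 without WT uneducated 6.

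The educated populations were also compared directly. In NKG2A+ cells 18 of the 80 members were lower than in Ly49C/I+ cells and none was higher, at a background of 1.42% lower and 1.31% higher over 9308 genes. The members' median was -0.19, against -0.00 over all genes, and 78 of the 80 lay below 0. Of the 18, 10 were of the large subunit, 8 of the small subunit and none a relative. Rps18, Rps12 and Rps19 are small subunit proteins, and Rps19 is the gene most often mutated in Diamond-Blackfan anaemia. Rps18 ran from 391 to 475 CPM in NKG2A+ libraries (median 416) and from 486 to 608 CPM in Ly49C/I+ libraries (median 542), with a difference of -0.36 ± 0.06 (edgeR adjusted p = 0.00656). Rps12 ran from 144 to 184 CPM (median 164) and from 199 to 256 CPM (median 204), a difference of -0.37 ± 0.08 (adjusted p = 0.0144). Rps19 ran from 500 to 563 CPM (median 511) and from 563 to 807 CPM (median 653), a difference of -0.36 ± 0.07 (adjusted p = 0.0108). In these 3 genes and Rps15 every NKG2A+ library lay below every Ly49C/I+ library, although for Rps19 by less than 1 CPM. The same held for Rplp0 and Rpl7a, which did not pass the threshold, and so for 6 of the 80 members, against 0.483% of all genes tested. Rps15 and Rpl7a were singled out after their values were seen. The call of Rps15 (-0.30, edgeR adjusted p = 0.0249) was lost, at up to 0.0712, without WT NKG2A+ 2 or WT Ly49C/I+ 2 or 5. It was also lost without the CPM filter and with offsets for GC content and length, alone or with a replicate block. Its difference shrank to as little as -0.05 under other settings (edgeR adjusted p up to 0.81).

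Rpl36 showed the largest difference between the educated populations (-0.46 ± 0.09, edgeR adjusted p = 0.0124), with 256 to 370 CPM in NKG2A+ libraries (median 293) beside the 360 to 503 CPM given above. With offsets for GC content and length its difference was -0.20 (adjusted p = 0.184). Rpl34 was also lower (-0.36 ± 0.09, adjusted p = 0.0384; up to 0.0967 without WT NKG2A+ 1, 2, 5, 7 or 8 or WT Ly49C/I+ 2, 4, 5 or 7). The number of members called depended on single libraries: it was 4 without WT Ly49C/I+ 2, 5 without WT Ly49C/I+ 5, 7 without WT NKG2A+ 2, 8 without WT NKG2A+ 5, WT NKG2A+ 8 or WT Ly49C/I+ 4, 9 without WT NKG2A+ 1 or 7, 10 without WT Ly49C/I+ 7 and 11 without WT NKG2A+ 4. Rpl36, Rps12, Rps18 and Rps19 passed the threshold in all 15 of these fits, and Rps12 and Rps18 under each of the other settings tried. This comparison shares the NKG2A+ libraries with the first and the Ly49C/I+ libraries with the second.

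**Figure D4:**
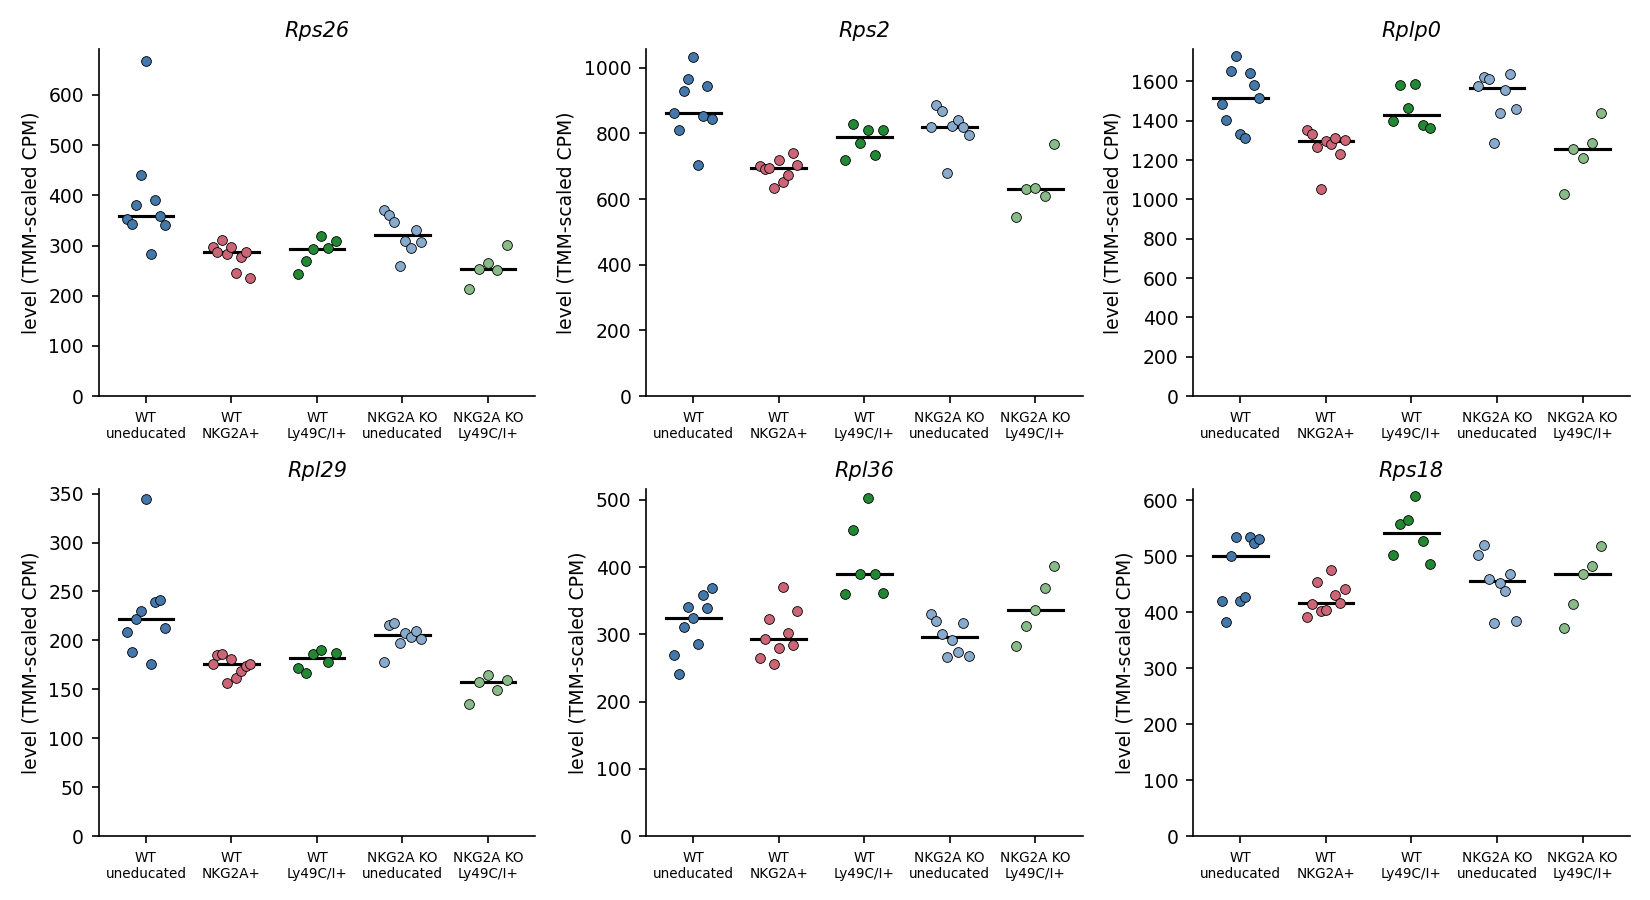
Level of 6 members in each library (CPM scaled by TMM, axes from 0), 1 point per library with a line at the group's median. Rps18 separates WT NKG2A+ (391 to 475 CPM) from WT Ly49C/I+ (486 to 608 CPM), and Rpl29 separates NKG2A KO Ly49C/I+ (135 to 164 CPM) from NKG2A KO uneducated libraries (178 to 218 CPM).

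In NKG2A KO mice, which share no library with the WT comparisons, 15 of the 80 members fell in Ly49C/I+ compared with uneducated cells and 1 rose, against 8.99% of all 9299 genes lower and 7.34% higher. The members' median was -0.16 (all genes 0.02), and 64 of the 80 lay below 0. Of the 15 that fell, 9 were of the large subunit, 4 of the small subunit and 2 were the relatives Rps27l and Rpl7l1. With offsets for GC content and length the split shrank to 4 lower and 3 higher, with a median of -0.05 and 50 of 80 below 0. With a block for replicate number it was 8 lower and 1 higher, with a median of -0.12. With the block and the offsets together it was 1 lower and 2 higher, with a median of -0.02 and 43 of 80 below 0, so the fall was not kept there. Rpl29, a small basic protein of the large subunit, ran from 178 to 218 CPM in uneducated libraries (median 205) and was 135, 157, 164, 149 and 159 CPM in Ly49C/I+ libraries 4 to 8. The groups did not overlap (-0.41 ± 0.08, edgeR adjusted p = 0.00252), as for 4.12% of all genes tested in this direction. Rps2 ran from 678 to 887 CPM in uneducated libraries (median 821) and was 545, 629, 633, 610 and 767 CPM in the Ly49C/I+ libraries, of which only library 8 reached the uneducated range (-0.35 ± 0.08, adjusted p = 0.00964). With the offsets its difference was -0.27 and missed the threshold (adjusted p = 0.0542). Rpl7l1 ran from 122 to 167 CPM in uneducated libraries (median 148) and was 101, 104, 122, 106 and 112 CPM in the Ly49C/I+ libraries (-0.44 ± 0.10, adjusted p = 0.00512). Rpl5 fell (-0.33 ± 0.09, adjusted p = 0.0175), at 0.0527 without NKG2A KO Ly49C/I+ 4.

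NKG2A KO Ly49C/I+ 4 had the lowest share of reads on the members of all 37 libraries. Without it 7 of the 16 calls remained, among them Rpl29 (-0.37, edgeR adjusted p = 0.00918), Rps2 (-0.30, adjusted p = 0.0328) and Rps27 (0.46, adjusted p = 0.00351), while Rplp0, Rpsa and Rps26 did not pass (adjusted p = 0.0673, 0.103 and 0.0942). The number called was 10 without NKG2A KO uneducated 3, NKG2A KO Ly49C/I+ 5 or NKG2A KO Ly49C/I+ 6, and 25 without NKG2A KO Ly49C/I+ 8. Of the 15 members that fell here, 12 (80%) were among the 26 that fell in WT NKG2A+ cells (46.2% of those): Rpl4, Rpl5, Rpl6, Rpl7a, Rpl7l1, Rpl12, Rpl15, Rpl29, Rplp0, Rps2, Rps26 and Rps27l. The same overlap over all genes was not counted, so the 80% has no background here, and the overlap was not tested. Of the 15, 0 were among the 18 that were lower in NKG2A+ than in Ly49C/I+ cells of WT mice.

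Rps27 and its paralog Rps27l, a gene known to respond to p53, moved in opposite directions in NKG2A KO Ly49C/I+ cells. Rps27 (ENSMUSG00000090733, chromosome 3, 90212522 to 90213651, minus strand) and Rps27l (ENSMUSG00000036781, chromosome 9, 66946086 to 66949516, plus strand) encode zinc finger proteins of the same position in the small subunit. Rps27 ran from 239 to 517 CPM in WT uneducated (median 324), 347 to 470 CPM in WT NKG2A+ (median 371) and 388 to 560 CPM in WT Ly49C/I+ libraries (median 442). In NKG2A KO mice it ran from 295 to 357 CPM in uneducated libraries (median 303) and was 372, 389, 418, 452 and 483 CPM in Ly49C/I+ libraries 4 to 8, all above the uneducated range. It was the only member that rose in that comparison (0.42 ± 0.08, edgeR adjusted p = 0.00275), and it kept its call in all 13 fits that left out a library. Of all genes tested, 1.92% lay higher without overlap. In WT mice the Ly49C/I+ difference was 0.42 ± 0.15 (adjusted p = 0.0924), and the NKG2A+ difference 0.18 ± 0.12 (adjusted p = 0.374). WT uneducated 5 held the highest uneducated value, and without it these became 0.53 (adjusted p = 0.00876) and 0.29 (adjusted p = 0.0457). It was the only 1 of the 15 and of the 18 libraries whose removal brought either difference past the threshold (adjusted p up to 0.227 and 0.558 without others). Of 11 other settings, 5 left the Ly49C/I+ difference short of the threshold, and all 11 left the NKG2A+ difference short of it.

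Rps27l ran from 132 to 260 CPM in WT uneducated (median 196), 114 to 184 CPM in WT NKG2A+ (median 127) and 110 to 170 CPM in WT Ly49C/I+ libraries (median 136). It ran from 123 to 203 CPM in NKG2A KO uneducated libraries (median 157) and was 83.0, 106, 119, 126 and 124 CPM in NKG2A KO Ly49C/I+ libraries. All groups overlapped their uneducated group. It fell in WT NKG2A+ cells (-0.49 ± 0.13, edgeR adjusted p = 0.0161) and in NKG2A KO Ly49C/I+ cells (-0.51 ± 0.13, adjusted p = 0.0162), and in WT Ly49C/I+ cells the difference of -0.48 ± 0.15 missed the threshold (adjusted p = 0.0537). The ratio of Rps27 to Rps27l, each in CPM and not per length, was 1.08 to 2.39 in WT uneducated libraries (median 1.65), 2.13 to 3.97 in WT NKG2A+ (median 2.82) and 2.52 to 5.10 in WT Ly49C/I+ libraries (median 3.11). In NKG2A KO mice it was 1.46 to 2.63 in uneducated libraries (median 1.93) and 4.49, 3.68, 3.51, 3.58 and 3.91 in Ly49C/I+ libraries. Both Ly49C/I+ groups lay above their uneducated group without overlap, and the pair was chosen with this pattern known, so no test is given. Of their 50-base stretches, 25.0% (Rps27) and 11.2% (Rps27l) occur in other genes' transcripts.

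**Figure D5:**
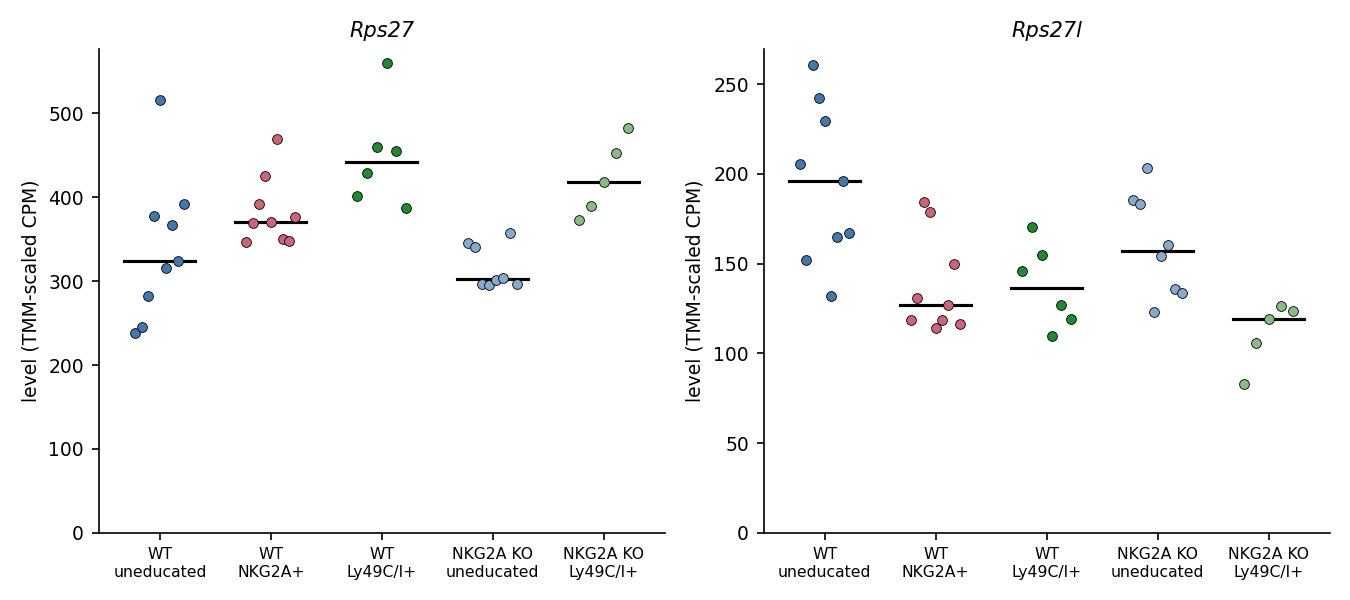
Level of Rps27 (left) and Rps27l (right) in each library (CPM scaled by TMM, axes from 0), 1 point per library with a line at the group's median. Rps27 is highest in the 2 Ly49C/I+ groups (medians 442 and 418 CPM), and Rps27l is highest in the 2 uneducated groups (medians 196 and 157 CPM).

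The other paralog pairs were read in the same way. Rpl22 and Rpl22l1, which encode RNA-binding proteins of the large subunit, did not pass the threshold by edgeR in the comparisons run, and their ratio had group medians of 2.11 to 2.34. Rpl36al was at -0.34 ± 0.13 in WT NKG2A+ cells (edgeR adjusted p = 0.0735) and -0.41 ± 0.14 in NKG2A KO Ly49C/I+ cells (adjusted p = 0.0579), and Rpl36a, on the X chromosome, at -0.25 ± 0.09 (adjusted p = 0.0537) and -0.19 ± 0.10 (adjusted p = 0.22). The ratio of Rpl7 to Rpl7l1 had medians of 3.99 and 3.92 in the WT and NKG2A KO uneducated groups and of 4.44 to 4.81 in the educated groups. Rpl3, beside its muscle paralog Rpl3l, was lower in NKG2A+ than in Ly49C/I+ cells of WT mice (-0.24 ± 0.06, adjusted p = 0.0282), a call lost, at up to 0.0718, without WT NKG2A+ 2 or 3 or WT Ly49C/I+ 2, 4, 5, 7 or 8, and with the GC and length offsets (adjusted p = 0.0727). Rpl10 (-0.22 ± 0.07, adjusted p = 0.0352) and Rps4x (-0.30 ± 0.08, adjusted p = 0.0237), both X-linked, passed the threshold in NKG2A KO Ly49C/I+ cells with all libraries. Without NKG2A KO Ly49C/I+ 4 they were at -0.18 (adjusted p = 0.0948) and -0.24 (adjusted p = 0.071), and with the offsets at -0.06 (adjusted p = 0.502) and -0.12 (adjusted p = 0.316). The call of Rpl10 was also lost without NKG2A KO uneducated 1, 2, 3 or 7 or NKG2A KO Ly49C/I+ 5, 6 or 7. Rpl39 was at 0.05 ± 0.13 in the same comparison (adjusted p = 0.822).

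Between genotypes no member passed the threshold, and populations of the same name may not hold the same cells in both, for the reason given with the sort. Counts of members at an unadjusted p under 0.05 are given here without the share of all genes at that level. The members vary together, so these are not counts of independent genes. In uneducated cells, 0% of all 9288 genes were called in either direction by edgeR's quasi-likelihood test, 7 members had an unadjusted p under 0.05, and neither the likelihood ratio test nor DESeq2 called a member. The members' median, NKG2A KO over WT, was -0.11 (all genes -0.01), with 75 of 80 below 0. Without WT uneducated 5 the median was -0.07 and no member had an unadjusted p under 0.05, and with 1 library left out that number ran from 0 (also without WT uneducated 4 or NKG2A KO uneducated 4 or 5) to 23 (without WT uneducated 6). In Ly49C/I+ cells 0% of all 9344 genes were called by the quasi-likelihood test. Of the 80 members, 47 had an unadjusted p under 0.05 and 79 lay below 0, and the median was -0.22 (all genes -0.00). Without NKG2A KO Ly49C/I+ 4 these were 24 members and a median of -0.16, without WT Ly49C/I+ 5 they were 28 and -0.18, and with the GC and length offsets 24 and -0.19. DESeq2 called 5 members lower and none higher, against 0.449% of all genes lower and 0.813% higher, and the likelihood ratio test called none. Rps2 was at -0.30 ± 0.09 (edgeR adjusted p = 0.257) in this comparison and Rpl9 at -0.27 ± 0.08 (adjusted p = 0.232). The Ly49C/I+ effect did not differ between genotypes past the threshold for any member (0% of 9322 genes), 6 members had an unadjusted p under 0.05, and neither other test called a member. The members' median difference of effects was -0.09, and it was -0.04 without NKG2A KO Ly49C/I+ 4, -0.15 without WT uneducated 5 and -0.03 with the offsets, with 2, 9 and 0 members at an unadjusted p under 0.05. For Rps27 the difference of effects was 0.02 ± 0.19 and for Rps27l -0.02 ± 0.21, so these intervals leave room for differences of either sign.

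Genes outside the naming rule were read beside the members. Of 19 other translation genes, 5 fell in WT NKG2A+ cells (Rack1, Eef1d, Npm1, Nap1l1 and Eef1g), 3 in WT Ly49C/I+ cells (Npm1, Nap1l1 and Eef1g) and 9 in NKG2A KO Ly49C/I+ cells, each compared with uneducated cells, and none rose. Eef1g, a subunit of the elongation factor that reloads eEF1A, fell in all 3 comparisons (-0.41 ± 0.06, -0.26 ± 0.08 and -0.47 ± 0.08, with edgeR adjusted p of 0.000146, 0.0435 and 0.000985). Rack1, a scaffold on the small subunit, fell in WT NKG2A+ (-0.33 ± 0.07, adjusted p = 0.00186) and NKG2A KO Ly49C/I+ cells (-0.33 ± 0.08, adjusted p = 0.0147). Of the 77 tested genes for mitochondrial ribosomal proteins, which are encoded in the nucleus and assembled in another compartment, 11 fell and 1 (Mrpl9) rose in WT NKG2A+ cells, 4 (Mrpl35, Mrpl42, Mrpl45 and Mrps14) fell in WT Ly49C/I+ and 14 fell in NKG2A KO Ly49C/I+ cells, with medians of -0.21, -0.14 and -0.22. The shares of all genes that fell in these comparisons were 7.56%, 4.7% and 8.99%, and the share of this list in WT Ly49C/I+ cells was near that background. Between NKG2A+ and Ly49C/I+ cells of WT mice the medians of these lists were -0.04 and -0.07, beside -0.19 for the members. Of 9 proliferation genes, Top2a rose in WT NKG2A+ cells (0.45 ± 0.13, edgeR adjusted p = 0.0196), and Birc5 and Mcm3 fell in NKG2A KO Ly49C/I+ cells (-0.55 ± 0.12 and -0.56 ± 0.12, adjusted p of 0.00694 and 0.00454). Against uneducated cells, the list's median was 0.12 in WT NKG2A+, -0.13 in WT Ly49C/I+ and -0.24 in NKG2A KO Ly49C/I+ cells. Between NKG2A+ and Ly49C/I+ cells of WT mice it was 0.28, with 0 of the 9 below 0 and 0 past the threshold.

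Markers of other cells were read for the whole lists, and some differed between the groups. The 4 red cell genes summed to 157 to 1113 CPM in WT uneducated (median 516), 598 to 2228 CPM in WT NKG2A+ (median 1188) and 681 to 2206 CPM in WT Ly49C/I+ libraries (median 972), and to medians of 528 and 668 CPM in NKG2A KO uneducated and Ly49C/I+ libraries. Of the 4, Hbb-bs rose in WT NKG2A+ cells (1.03, adjusted p = 0.0422). Of 4 tested T cell genes, Cd3e and Cd3d rose in WT NKG2A+ cells (1.84 and 1.19, edgeR adjusted p of 0.00177 and 0.00156), and the other 2 lay below 0. The 8 markers summed to 86.5 to 243 CPM over all libraries, with medians of 129 CPM in WT uneducated and 144 CPM in WT NKG2A+ libraries. Pecam1, the only endothelial marker tested (121 to 346 CPM over all libraries), fell in both educated WT populations, while Cdh5 and Emcn were at 0 in 31 and 36 libraries. The 7 macrophage and monocyte genes summed to medians of 28.7 to 73.7 CPM by group, and the B cell, neutrophil, stroma and trophoblast lists to group medians of at most 6.15 CPM. Of 8 NK cell genes, Nkg7, Klrb1c and Ncr1 rose and Gzmb and Prf1 fell in WT NKG2A+ and in NKG2A KO Ly49C/I+ cells, and Ncr1 rose and Gzmb and Prf1 fell in WT Ly49C/I+ cells. The part of these differences in the members' levels was not tested, and in bulk libraries fewer cells of a type and less RNA per cell cannot be told apart.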

How the data were processed

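Bulk RNA-seq of 37 libraries of sorted uNK cells was used. The authors trimmed the reads with Trim Galore 0.5.0, mapped them with STAR 2.7.1 to GRCm38, and deposited raw counts for 53700 Ensembl genes. No source used here names the counter or says whether it used strand. The 5 summary lines that name no gene entered neither library sizes nor tests: 2.69% to 6.83% of reads on no gene, 4.04% to 4.60% ambiguous and 11.3% to 13.8% without a unique position.

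Symbols, lengths and overlaps came from GENCODE M21, which names 52147 of the identifiers. CPM were scaled by TMM over all 37 libraries. Each comparison was tested with edgeR 4.0.16 (R 4.3.3), quasi-likelihood test, in a fit that held only its own groups. Genes entered where 0.5 or more of those libraries reached 5 CPM, and p-values were adjusted by Benjamini-Hochberg over all genes tested (threshold 0.05). Amplified reads without molecular identifiers are not independent molecules. Tests were checked on simulated counts. Alternatives were RLE factors, TMM without the members, no CPM filter, the likelihood ratio test, DESeq2 1.42.0, spline offsets (5 degrees of freedom) for GC content and length where the authors used CQN, a block for replicate number, a single fit over all groups, WT uneducated 5 and WT NKG2A+ 5 removed, each library left out and, chosen after seeing the data, removal of the 4 libraries with the fewest genes.

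Named genes were the 5 largest increases and 5 largest decreases among members called in each comparison, the paralog pairs, 9 members and Rack1 of known roles, and the 5 highest and 5 lowest levels per kilobase. The members, the lists of translation, mitochondrial ribosomal, proliferation and cell type genes, and this rule were chosen with earlier results of these data known. Some genes that entered the counts are not reported here by name.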

Additional observations from a re-analysis of the deposited data

Results flagged for a closer look

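In groups of 5 to 9 libraries, the share of reads and the levels of 19 members were examined for a highest or lowest library far from the rest of its group by Dixon's test. Of 100 such groups 12 stood out, where chance gives about 1 in 20 for independent groups. These groups are not independent, because the members vary together and some were named for large differences that single libraries helped to make. The count of 12 was therefore not tested against that rate. WT uneducated 5 was the highest of its group for Rps26 (668 CPM, next 440), Rps19bp1 (93.6, next 37.0), Rpl38 (435, next 302) and Rpl29 (344, next 242). NKG2A KO uneducated 4 was the lowest for Rps19 (458 CPM, next 552) and Rps2 (678, next 794). NKG2A KO Ly49C/I+ 4 was the lowest for Rpsa (484 CPM, next 602). WT NKG2A+ 4 was the lowest for Rplp0 (1052 CPM, next 1232) and the highest for Rpl5 (213, next 182), and WT NKG2A+ 5 the lowest for Rps19bp1 (20.7 CPM, next 24.8). WT Ly49C/I+ 7 was the lowest for Rpl7l1 (90.7 CPM, next 122) and WT Ly49C/I+ 5 the highest for Rps12 (256, next 210). The share of reads on the 86 genes held no such library in any group.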

How the results depend on the processing

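Of 68 changes of named members examined, the 63 past the threshold kept their direction under every alternative run. Rps27l between NKG2A+ and Ly49C/I+ WT cells, at -0.01 and not past the threshold, ran from -0.14 to 0.06. With 1 library left out, 782 of the refitted values kept their side of the threshold, 280 lost it and 7 gained it, and under the other settings these were 537, 185 and 10. The number of members past the threshold ran from 15 to 32 for NKG2A+ against uneducated WT cells (26 with all libraries), 0 to 7 for Ly49C/I+ against uneducated WT cells (3), 4 to 23 for NKG2A+ against Ly49C/I+ WT cells (18) and 7 to 25 for Ly49C/I+ against uneducated NKG2A KO cells (16) when 1 library was left out. Without the CPM filter, where more genes are tested, these 4 comparisons gave 14, 0, 4 and 8. With offsets for GC content and length they gave 19, 5, 10 and 7. The likelihood ratio test gave 6 for Ly49C/I+ against uneducated WT cells, DESeq2 gave 8 there and 34 for NKG2A+ against Ly49C/I+ WT cells, and a single fit over all groups gave 14 for Ly49C/I+ against uneducated WT cells. Without WT uneducated 5 and WT NKG2A+ 5, WT NKG2A+ against uneducated cells gave 18, WT Ly49C/I+ against uneducated cells 7 and NKG2A+ against Ly49C/I+ cells 8. Without the 4 libraries with the fewest genes, a setting chosen after seeing the data, NKG2A+ against Ly49C/I+ WT cells gave 6 and the NKG2A KO comparison 10. Between genotypes DESeq2 gave 5 in Ly49C/I+ cells, and the other settings 0. The cause of these shifts was not tested.

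Libraries share replicate numbers, and same-numbered libraries deviated together in some pairs but not in every one. In the 4 comparisons of populations, 3 of 9, 5 of 6, 1 of 6 and 3 of 5 correlated best with their own number, and between genotypes 1 of 8 and 2 of 4 did. The lowest correlation of deviations was -0.03, 0.08, 0.02 and 0.02 in the comparisons of populations and -0.23 and -0.04 between genotypes. Whether same-numbered libraries share a source was not tested, and the main tests leave replicate number out. With the replicate block the 4 comparisons gave 19, 4, 13 and 9 members, and with the replicate block and offsets together 13, 5, 9 and 3. The last 3, of the NKG2A KO comparison, were 1 lower and 2 higher, against 15 lower and 1 higher in the main fit. No member passed between genotypes with the block by edgeR.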
